A study of Mus musculus with 8 samples.

Results

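The genes described here encode the conjugating enzymes of liver: the UDP-glucuronosyltransferases (Ugt), the glutathione S-transferases (Gst) and the cytosolic sulfotransferases (Sult). They were chosen by name alone. All genes of the families Ugt1 to Ugt3, of the Gst classes alpha, kappa, mu, omega, pi and theta, and of Sult1 to Sult6 were taken if they held at least 15 counts over the 8 libraries, with the Sult2a genes and pseudogene names left out. Of 35976 genes in the table, 53 carried such a name and 45 passed the count threshold, of which 17 were Ugt, 18 Gst and 10 Sult genes. Just inside the threshold lay Ugt1a10 with 15 counts and Sult3a1 with 32, and just outside it Gsto2 with 11. The other 7 names left out held between 0 and 4 counts each. A test was possible for 39 members (15 Ugt, 18 Gst and 6 Sult genes), which passed a filter on low counts.

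RNA of whole liver was sequenced from mice on a high fat diet. The genotypes compared were CTRL, with 5 libraries, and OPA1 LKO, with 3 libraries, in which Opa1 was deleted in hepatocytes. Opa1 encodes the GTPase that fuses the inner mitochondrial membrane. The series title names fatty liver and the conjugation of bile acids as its subjects. The sources used here do not give the Cre driver, the exons removed, or the strain, age and sex of the mice. Nor do they say whether each library is a separate animal, so p-values reflect only how far these samples differ, part of which may be technical.

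Conjugation makes fat-soluble compounds soluble in water so that they can leave in bile or urine. Ugt enzymes sit in the endoplasmic reticulum and attach glucuronic acid from UDP-glucuronate to bilirubin, steroids, bile acids and drugs. Gst enzymes attach glutathione to reactive electrophiles such as oxidised lipids and drug metabolites, and Sult enzymes attach sulfate from the donor PAPS to phenols, steroids and hormones. Hepatocytes hold most of these enzymes in the liver. Their genes are known targets of the receptors CAR, PXR, AHR and PPAR-alpha and of the stress factor NRF2, and several differ between male and female mouse liver. In RNA of a whole organ, fewer cells of a type and less RNA per cell cannot be told apart.

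The libraries held between 16076404 and 20471271 counts, and the members took between 0.658% and 1.18% of them. Opa1 was between 39.9 and 57.6 CPM (counts scaled by library size to a common total) in CTRL and between 24.7 and 34.4 CPM in OPA1 LKO. The groups did not overlap, and the adjusted p was 0.0539 by edgeR's quasi-likelihood test with Benjamini-Hochberg adjustment. A pair of CTRL libraries stood apart. In CTRL library 1, Apoe was at 133.8 CPM against at least 20759 CPM in the other 7, and Xist, expressed from an inactive X chromosome, was at 8.13 CPM against at most 0.185. The Y-linked Eif2s3y, at 35.8 CPM there, was between 27.2 and 46.7 CPM in the other 7. Macrophage markers summed to 492 CPM in CTRL library 1, against 109 to 241 CPM in the other CTRL libraries. In CTRL library 3, Tff2 and Vil1, genes of gallbladder and intestinal epithelium, were at 65.4 and 39.7 CPM, against at most 0.405 and 0.765 in the other 7. Kidney markers were at or under 0.0559 CPM in sum in each library. Hepatocyte markers summed to 58077 to 101150 CPM in CTRL and 70772 to 91172 CPM in OPA1 LKO. Most of this was Alb, at 42684 to 77090 CPM in CTRL and 50831 to 67583 CPM in OPA1 LKO. Of the 7 hepatocyte markers Tat was higher in OPA1 LKO, with an adjusted p of 0.0095 in the same edgeR test. Stellate markers summed to 171 to 244 CPM in CTRL and 229 to 482 CPM in OPA1 LKO.

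Per unit of length, the members were dominated by a few Gst genes. On the scale of TPM, a transcript abundance corrected for length, Gstp1 had a mean of 2045 over the 8 libraries, Gstm1 1794, Gsta3 772 and Gstt1 396. The highest Ugt genes were Ugt1a6b at 352 TPM, Ugt2b5 at 322, Ugt2b36 at 314 and Ugt2b34 at 87.7. Among Sult genes Sult1a1 stood first at 407 TPM, followed by Sult1d1 at 45.6, Sult1b1 at 26.3 and Sult5a1 at 11.3. The 18 Gst genes together had 6431 ± 1933 TPM in CTRL (SD, n = 5) and 5327 ± 593 TPM in OPA1 LKO (SD, n = 3). The 17 Ugt genes had 1525 ± 303 and 1191 ± 323 TPM, and the 10 Sult genes 476 ± 66.4 and 550.4 ± 95.7 TPM. These sums overlapped between the groups in each family, as the ranges by library show: 1089 to 1936 against 882 to 1526 TPM for Ugt, 4814 to 9578 against 4699 to 5879 TPM for Gst, and 401 to 564 against 441 to 616 TPM for Sult.

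**Figure D1:**
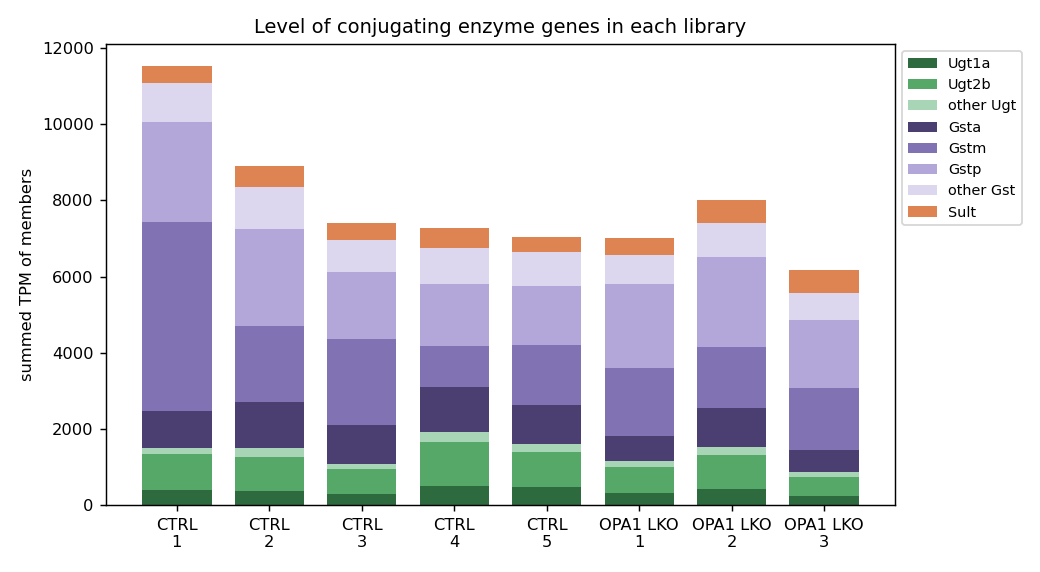
Summed TPM of the members in each library (vertical axis), stacked by subfamily, for 5 CTRL and 3 OPA1 LKO libraries. The Gst classes make up most of each bar, and CTRL library 1 is the tallest because its Gstm genes reach 4934 TPM, against 1088 to 2234 TPM in the other CTRL libraries.

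Of the 39 tested members, 1 was higher in OPA1 LKO and 3 were lower at an adjusted p under 0.05 by edgeR's quasi-likelihood test with Benjamini-Hochberg adjustment over 14036 genes. Sult1e1 rose, and Gstt1, Sult5a1 and Ugt2b35 fell. That is 10.3% of the tested members, against 6.03% of all tested genes. In the upward direction the share was 2.56%, against 3.34% of all tested genes, and in the downward direction 7.69%, against 2.69%. The upward share is Sult1e1 alone, which met the filter on low counts only through the OPA1 LKO libraries. Of the 39 members, 29 had a negative log2 fold change, the 3 that passed as lower among them (74.4%, against 53.1% of all tested genes), and the median was -0.50, against -0.03 over all tested genes. The groups did not overlap in CPM for 7 members (17.9%), against 16.4% of all tested genes. In 6 of them OPA1 LKO was lower (15.4%, against 8.41% of all tested genes): Gstm4, Gstm6, Gstt1, Sult5a1, Ugt2b34 and Ugt2b35. The other was Sult1e1.

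The families leaned in the same direction to different degrees. Of the Ugt genes 12 of 15 had a negative log2 fold change with a median of -0.55, of the Gst genes 13 of 18 with a median of -0.36, and of the Sult genes 4 of 6 with a median of -0.31. The family medians stayed negative in all 17 alternative fits, and between 27 and 30 of the 39 members were negative in each. The Gst median was close to that of all genes without CTRL libraries 1 and 3 together (-0.034 against -0.009), with 11 of 18 negative. Without CTRL library 1 alone the Gst median was -0.19, and without CTRL library 4 the Sult median was -0.09. The count of negative Sult genes was 3 of 6 with upper-quartile scaling, on the log2(TPM + 1) scale, with a replicate block and without CTRL library 4 or OPA1 LKO library 1. On the log2(TPM + 1) scale the median of all genes was 0.09 and that of the members -0.31, so the members stood below the rest there too.

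The number of members that passed depended on which libraries were in the fit. Without CTRL library 1 it was 9 lower and 2 higher, while 5.59% and 6.65% of all genes passed, and without CTRL libraries 1 and 3 together 13 lower and 3 higher, while 10.4% and 10.9% did. Without CTRL library 5, OPA1 LKO library 2 or OPA1 LKO library 3, 1 member passed as lower, while 1.23%, 1.66% and 0.498% of all genes did. Without OPA1 LKO library 1 the edgeR count of lower members was 0, with 8 under an unadjusted p of 0.05, and 0.377% of all genes passed as lower. With DESeq2 on all 8 libraries, 7 of 41 members were lower, among them Gstm4, Gstt3, Ugt1a5 and Ugt2b34, and 5.29% of all genes.

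**Figure D2:**
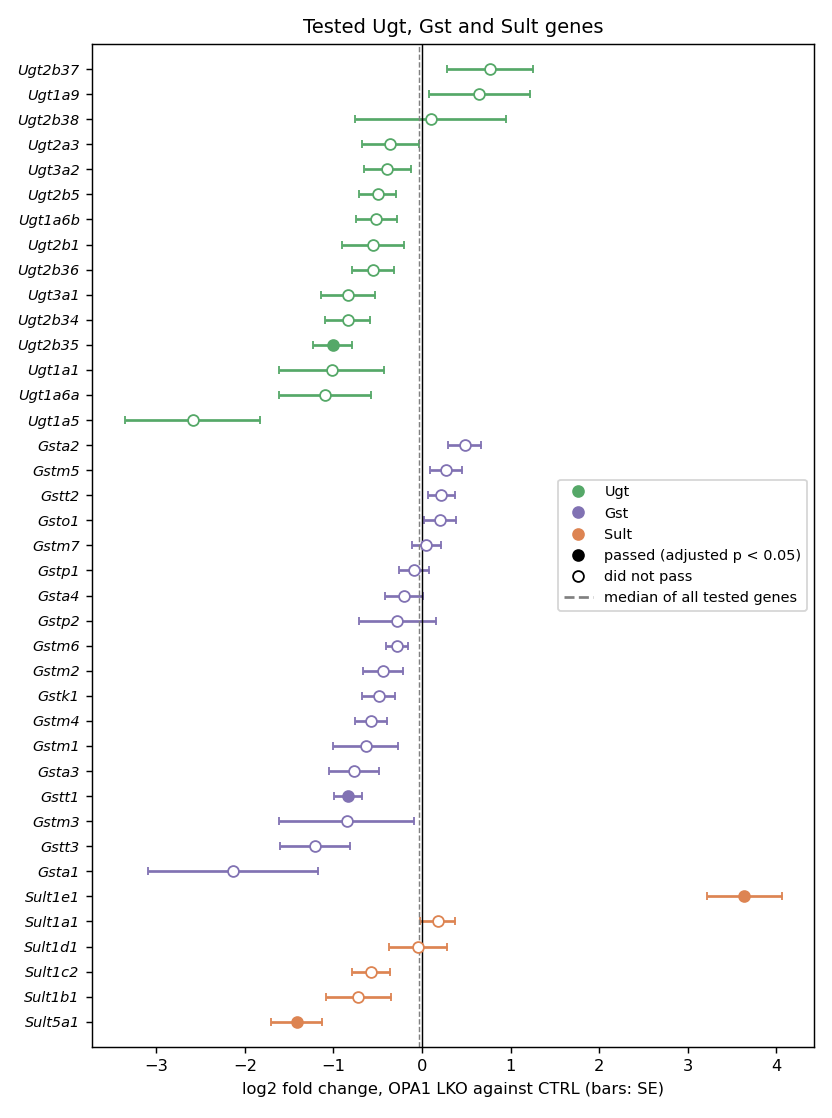
Log2 fold change of the 39 tested members in OPA1 LKO against CTRL (horizontal axis), with bars for the SE, grouped by family and ordered within it. Filled points passed the test and the dashed line is the median of all tested genes, -0.03; 29 points lie left of 0, and Sult1e1 at 3.64 is the farthest from it.

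Sult1e1, the estrogen sulfotransferase, which inactivates estrogens, was the member that rose. Its gene spans 87575968 to 87591611 of chromosome 5 (GRCm38.p6). The estimated counts were 4, 4, 14, 7 and 9 in CTRL and 113, 83 and 132 in OPA1 LKO. On the CPM scale this was 0.212, 0.225, 0.783, 0.480 and 0.516 in CTRL and 5.22, 3.73 and 7.81 in OPA1 LKO. Each OPA1 LKO library was above every CTRL library, and the gene was near the limit of detection in the controls, so that it passed the filter on low counts through the OPA1 LKO libraries. This is a log2 fold change of 3.64 ± 0.42 (SE), adjusted p = 0.0019 by edgeR's quasi-likelihood test and Benjamini-Hochberg adjustment. Scaled to the library sizes, the 328 counts of OPA1 LKO against the 38 of CTRL gave a ratio of 12.3, with an exact 95% interval from 8.77 to 17.7 that covers counting error only. The gene passed in all 17 alternative fits, with a log2 fold change between 2.24 and 3.97 and an adjusted p of at most 0.0166. These fits reuse the libraries in which the gene was high, so they are not independent support for the rise. With 5.66 ± 1.59 TPM in OPA1 LKO (SD, n = 3) it remained below Sult1d1 and Sult1b1, at 48.3 ± 12.7 and 21.2 ± 5.64 TPM in the same libraries.

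Some markers of bile duct cells moved alongside Sult1e1. Of 8 such markers 3 were higher in OPA1 LKO, Krt7, Sox9 and Spp1 (37.5%, against 3.34% of all tested genes). The 8 together summed to 35.0 to 89.5 CPM in CTRL and 165 to 220.1 CPM in OPA1 LKO. Most of the OPA1 LKO sum was Spp1 alone, at 13.9 to 33.1 CPM in CTRL and 122 to 176 CPM in OPA1 LKO. The defining markers Cftr and Krt19 did not pass, with log2 fold changes of -0.11 ± 1.31 and -0.50 ± 1.23 (SE). Cftr was at 0 in CTRL libraries 1 and 2, at 3.02 CPM in CTRL library 3, above every other library, and at 0.540 CPM or more in OPA1 LKO. CTRL library 3 also held the most Krt19, 22.3 CPM, and its Sult1e1 level was 0.783 CPM. Sult1e1 is also a neighbour in role of the Sult2a genes, the hydroxysteroid sulfotransferases outside the definition used here, of which Sult2a1, Sult2a2 and Sult2a5 were each at or under 0.0686 CPM in every CTRL library and between 0.810 and 7.22 CPM in OPA1 LKO. These 3 met the filter on low counts only through the OPA1 LKO libraries, so their number is not given as a result. Of the 5 Sult2a genes tested, 2 went the other way. Both had a negative log2 fold change and an unadjusted p under 0.05 by edgeR, and 1 passed as lower with DESeq2.

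The sequence just upstream of Sult1e1 is shown because this gene changed most, and that of Ugt2b35, a gene lower in OPA1 LKO that lies on the same stretch of chromosome 5, for comparison. Each is the 250 bases before the start site in RefSeq (GRCm38.p6), with matches of any of 7 searched motifs in capitals: chr5:87591612-87591861 on the minus strand and chr5:87000610-87000859 on the plus strand.
Sult1e1: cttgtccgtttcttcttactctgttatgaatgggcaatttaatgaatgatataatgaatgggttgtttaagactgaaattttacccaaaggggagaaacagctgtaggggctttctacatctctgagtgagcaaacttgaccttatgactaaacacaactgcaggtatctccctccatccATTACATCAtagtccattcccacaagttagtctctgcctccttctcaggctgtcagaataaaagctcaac
Ugt2b35: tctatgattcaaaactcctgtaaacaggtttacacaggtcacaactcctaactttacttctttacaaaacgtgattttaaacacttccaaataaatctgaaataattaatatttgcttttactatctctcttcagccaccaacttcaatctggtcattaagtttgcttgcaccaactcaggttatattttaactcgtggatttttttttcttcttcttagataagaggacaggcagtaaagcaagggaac
The capitals in the Sult1e1 sequence match the composite C/EBP-ATF element TGATGNAAT on the opposite strand, from 70 to 62 bases before the start site. Of 32851 promoter windows of this length in the table, 0.816% held that motif on either strand, and Sult1e1 was the sole member among the 40 that had a window. In the Ugt2b35 window none of the 7 motifs was found. A match is a description of letters and not of a bound site. The other motifs searched on both strands were ARE (TGACNNNGC), STAT5 (TTCNNNGAA), CEBP (TTGCNNAA), DR1, DR4 and ER6, and, without capitals here, XRE (GCGTG) and the box TATAAA. All were chosen after the values were seen. The windows listed for Gstt1 and Sult5a1 start inside these genes and are not shown.

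The other sulfotransferases did not follow Sult1e1. Sult5a1, an orphan sulfotransferase whose substrate is not well known, lies on chromosome 8 from 123142843 to 123158914 and fell. Its CPM were 9.03, 17.7, 16.8, 11.8 and 16.04 in CTRL and 4.39, 4.09 and 7.69 in OPA1 LKO, with every OPA1 LKO library below every CTRL library. The log2 fold change was -1.41 ± 0.29 (SE), adjusted p = 0.0212 by edgeR's quasi-likelihood test with Benjamini-Hochberg adjustment. It passed in 13 of 17 alternative fits, over which the adjusted p ran from 0.000149 to 0.115, and not without CTRL library 2 (0.0504), CTRL library 5 (0.0546), OPA1 LKO library 1 (0.115) or OPA1 LKO library 2 (0.0661). Its main transcript, NM_020564.3, went from 10.6 ± 1.90 TPM (SD, n = 5) to 5.13 ± 1.95 TPM (SD, n = 3) and made up 73.9% and 84.8% of the gene.

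Sult1a1, the phenol sulfotransferase and by far the most abundant of the family, did not pass. It ranged from 302 to 458 CPM in CTRL and from 329.8 to 513 CPM in OPA1 LKO, and the log2 fold change was 0.18 ± 0.20 (SE). Sult1d1, which acts on catecholamines, was at 71.6, 99.4, 89.5, 172.5 and 61.5 CPM in CTRL and 63.4, 104.3 and 119.4 CPM in OPA1 LKO. The groups lay over each other, and its log2 fold change of -0.05 ± 0.33 changed sign in 5 of 17 alternative fits. Sult1b1, which acts on thyroid hormones, and Sult1c2 had log2 fold changes of -0.72 ± 0.37 and -0.58 ± 0.21 and did not pass, with adjusted p-values of 0.272 and 0.134 by edgeR with Benjamini-Hochberg adjustment. Without CTRL library 1 Sult1b1 passed (0.0478), and over 17 alternative fits its adjusted p ran from 0.034 to 0.600.

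Among the transferases of glutathione, Gstt1 fell. This theta class enzyme, which acts on small halogenated compounds, lies on chromosome 10 from 75783813 to 75798584. Its CPM were 362, 407, 465, 405 and 364 in CTRL and 187, 238 and 247 in OPA1 LKO. The CTRL libraries lay close together and all above the OPA1 LKO libraries. The log2 fold change was -0.84 ± 0.16 (SE), adjusted p = 0.0161 by edgeR's quasi-likelihood test with Benjamini-Hochberg adjustment. It passed in 15 of 17 alternative fits, with an adjusted p from 8.83e-07 to 0.0964, and not without OPA1 LKO library 1 (0.0964) or library 3 (0.058). The transcript NM_008185.3 made up 99.6% of its TPM in CTRL and 99.7% in OPA1 LKO.

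The theta genes beside Gstt1 on chromosome 10 did not move with it as one block. Gstt3 was at 31.9, 93.7, 54.4, 100.2 and 75.6 CPM in CTRL and 18.2, 45.2 and 29.1 CPM in OPA1 LKO, where only CTRL library 1 fell within the range of the OPA1 LKO libraries. It had a log2 fold change of -1.20 ± 0.39 (SE), adjusted p = 0.101 by edgeR with Benjamini-Hochberg adjustment. The adjusted p ran from 0.00716 to 0.331 over 17 alternative fits, and Gstt3 passed in 4 of them, among them the fit without CTRL library 1 (0.0208). Gstt2 was at 114 to 168.8 CPM in CTRL and 145.1 to 162.8 CPM in OPA1 LKO, with a log2 fold change of 0.21 ± 0.15.

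The most abundant glutathione transferases did not pass. Gstp1, the pi class enzyme that is high in male mouse liver, was at 886 to 1353 CPM in CTRL and 1014 to 1143 CPM in OPA1 LKO, with a log2 fold change of -0.09 ± 0.17 that was 0.09 on the log2(TPM + 1) scale. Gsta3, an alpha class enzyme that detoxifies aflatoxin epoxide in mice, was at 636, 1217, 1024, 1466 and 1109 CPM in CTRL and 519, 867 and 539 CPM in OPA1 LKO. Only CTRL library 1 lay within the range of the OPA1 LKO libraries. It had a log2 fold change of -0.77 ± 0.28, adjusted p = 0.135 by edgeR with Benjamini-Hochberg adjustment, which was 0.0329 without CTRL library 1 and between 0.02 and 0.409 over 17 alternative fits. Gstk1, the kappa enzyme of mitochondria and peroxisomes, ranged from 154 to 224 CPM in CTRL and from 117 to 158 CPM in OPA1 LKO and did not pass (log2 fold change -0.49 ± 0.19). Gsto1, the omega enzyme, and Gsta4, which conjugates the lipid peroxidation product 4-hydroxynonenal, had log2 fold changes of 0.20 ± 0.18 and -0.20 ± 0.21 and overlapped between groups.

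Within the controls, several members differed more between libraries than between the groups. Gsta1, a stress-inducible alpha class enzyme, was at 94.2, 8.03, 163, 9.81 and 20.6 CPM in CTRL and 16.9, 9.85 and 13.6 CPM in OPA1 LKO. CTRL libraries 1 and 3 were high and the other 3 lay around the OPA1 LKO libraries. Its log2 fold change was -2.14 ± 0.96 (SE), adjusted p = 0.209 by edgeR with Benjamini-Hochberg adjustment, and 0.07 without CTRL libraries 1 and 3. Gstm1, the most abundant mu class gene, was at 3917, 1729, 2584, 1175 and 1453 CPM in CTRL and 1453, 1206 and 1526 CPM in OPA1 LKO, with the same libraries on top. Gstm3 stood out further in CTRL library 1, where it reached 200.3 CPM. The other CTRL libraries held 11.2 to 60.7 CPM of it and the OPA1 LKO libraries 31.3 to 39.1 CPM. Of the 7 mu genes on chromosome 3, 5 had a negative log2 fold change and 0 passed by edgeR. At an unadjusted p under 0.05, 2 of them were lower, against 1726 of all 14036 tested genes. With DESeq2 1 of the 7 passed as lower, Gstm4, which was at 30.5 to 53.3 CPM in CTRL and 26.3 to 30.4 CPM in OPA1 LKO.

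**Figure D3:**
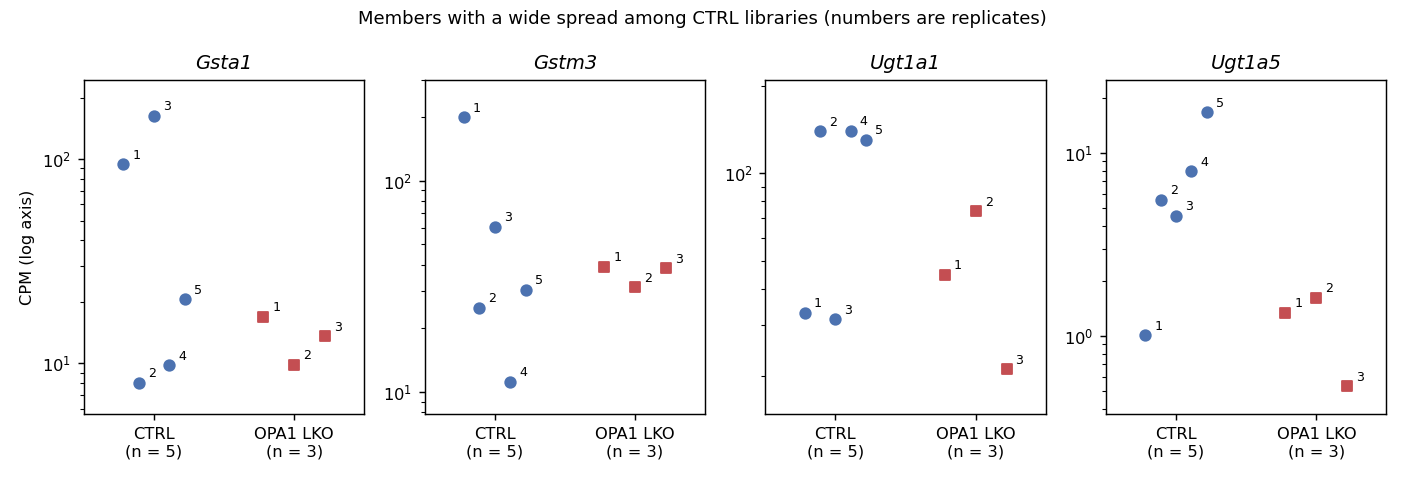
CPM on a log axis for Gsta1, Gstm3, Ugt1a1 and Ugt1a5 in each of 5 CTRL (circles) and 3 OPA1 LKO (squares) libraries, numbered by replicate. CTRL libraries 1 and 3 are high for Gsta1 and Gstm3 and low for Ugt1a1, and the groups overlap in all 4 genes.

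Of the glucuronosyltransferases, Ugt2b35 fell. It belongs to the Ugt2b group, whose enzymes act on steroids, bile acids and drugs, and lies on chromosome 5 from 87000860 to 87013274. Its CPM were 94.9, 96.5, 96.0, 168.6 and 138 in CTRL and 61.3, 64.0 and 51.6 in OPA1 LKO, and all OPA1 LKO libraries were below all CTRL libraries. The log2 fold change was -1.01 ± 0.22 (SE), adjusted p = 0.0294 by edgeR's quasi-likelihood test with Benjamini-Hochberg adjustment. It passed in 12 of 17 alternative fits, with an adjusted p from 0.000497 to 0.138. It did not pass on the log2(TPM + 1) scale (0.0671) or without CTRL library 5 (0.0695) or any of OPA1 LKO libraries 1 to 3 (0.121, 0.0624 and 0.138).

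The more abundant Ugt2b genes lay in the same direction and did not pass. Ugt2b34 was at 207 to 433 CPM in CTRL and 136.7 to 190.6 CPM in OPA1 LKO with no overlap, and had a log2 fold change of -0.84 ± 0.26. Its adjusted p was 0.0855 by edgeR with Benjamini-Hochberg adjustment, 0.0188 with DESeq2, 0.0339 without CTRL library 1, and 0.0142 to 0.297 over 17 alternative fits. Ugt2b5 and Ugt2b36 were each highest in CTRL library 4, at 840.0 and 860.0 CPM, and had log2 fold changes of -0.50 ± 0.21 and -0.56 ± 0.23. Their OPA1 LKO levels, 342 to 493 and 329 to 502 CPM, overlapped with the CTRL levels of 491 to 840.0 and 455 to 860.0 CPM only through OPA1 LKO library 2. Ugt2a3 and Ugt2b1 had log2 fold changes of -0.36 ± 0.32 and -0.55 ± 0.35. Ugt2b37 and Ugt2b38, both under 4 CPM in every library, had positive ones.

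The Ugt1a genes lie on chromosome 1 and share their last exons, so that each differs from the others in its first exon alone, and reads from the shared exons were divided by estimation. Ugt1a6b, which acts on phenols, was the highest of them, with 620 to 1148 CPM over the CTRL libraries and 477 to 679 CPM over the OPA1 LKO libraries, and did not pass (log2 fold change -0.52 ± 0.23). Ugt1a1, the enzyme that conjugates bilirubin, was at 33.1, 139.6, 31.5, 140.0 and 130.5 CPM in CTRL and 44.7, 74.2 and 21.1 CPM in OPA1 LKO. CTRL libraries 2, 4 and 5 were high and CTRL libraries 1 and 3 lay within the range of OPA1 LKO, the reverse of the pattern of Gsta1. The log2 fold change was -1.02 ± 0.59, adjusted p = 0.327 by edgeR with Benjamini-Hochberg adjustment, and 0.016 to 0.671 over 17 alternative fits, of which it passed 1, without CTRL libraries 1 and 3 together. Ugt1a5 was at 1.01, 5.56, 4.53, 7.96 and 16.7 CPM in CTRL and 1.34, 1.62 and 0.533 CPM in OPA1 LKO, where only CTRL library 1 lay among the OPA1 LKO libraries. Its log2 fold change was -2.59 ± 0.76, adjusted p = 0.0754 by edgeR with Benjamini-Hochberg adjustment. It was 0.00978 without CTRL library 1, 0.0034 with DESeq2 and 0.0032 to 0.251 over 17 alternative fits. Ugt1a6a had a log2 fold change of -1.10 ± 0.52 and did not pass, and Ugt1a9 one of 0.65 ± 0.57. Ugt1a6a shared 96.0% of its 50-base words with other genes, and Ugt1a1 58.2%, so the split between Ugt1a genes is uncertain.

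The Ugt3a genes use other sugars: Ugt3a1 transfers N-acetylglucosamine and Ugt3a2 glucose or xylose. Ugt3a1 was at 43.9, 96.3, 54.2, 108.9 and 77.3 CPM in CTRL and 36.4, 56.4 and 35.1 CPM in OPA1 LKO. CTRL libraries 1 and 3 were within the range of OPA1 LKO. It had a log2 fold change of -0.84 ± 0.31, and Ugt3a2 one of -0.39 ± 0.26, and neither passed.

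The position of a library among its group was shared across many members. CTRL library 4 was the highest of the 5 CTRL libraries for 19 of the 39 tested members, 11 of them among the 15 Ugt genes. CTRL library 1 was the lowest for 18, and it was the lowest for 8 Ugt and 4 Sult genes but the highest for 7 of 18 Gst genes. Among OPA1 LKO libraries, library 2 was the highest for 24 members, including 13 of 15 Ugt genes, and library 3 the lowest for 18, including 11 Ugt genes. Within each genotype, most Ugt genes thus had their highest level in the same library.

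Sequence shared between members limits what single levels show. Of the 45 members, 14 shared no 50-base word with another gene in GENCODE transcripts (vM21), and 15 shared more than 20% of theirs. Sult1e1 and Gstt1 shared 0%, Ugt2b35 0.303% and Sult5a1 1.34%. Gsta1 shared 89.7%, mostly with Gm3776, and Gstp1 shared 51.0%, all with Gstp2.

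By position, 11 members (8 Ugt2 genes with Sult1b1, Sult1d1 and Sult1e1) lie on chromosome 5 between 86889770 and 87591611. Of these 8 had a negative log2 fold change and 2 passed, against 6.03% of all tested genes: Ugt2b35 was lower and Sult1e1 higher. The antioxidant element bound by NRF2 (ARE) was in the windows of Gsta3, Gstm5 and Gstm7, 6.25% of the windows of members against 10.2% of all.

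The 6 members without a test were near 0 in most libraries. Sult2b1, the cholesterol sulfotransferase, and Sult6b2 held 148 and 164 counts in CTRL. CTRL library 3 had 7.94 CPM of Sult2b1 and 9.11 CPM of Sult6b2, while the other 7 libraries had at most 0.323 and 0.0686 CPM. This is the library with Tff2 at 65.4 CPM. The 4 markers of gallbladder and intestine, of which Tff2 and Vil1 were at 0 in CTRL library 2, summed to 524 CPM in CTRL library 3. In the other libraries Fabp2, which itself passed as lower, made up nearly all of their sum: Fabp2 was at 165 to 372 CPM in the remaining CTRL libraries and 104 to 150.04 CPM in OPA1 LKO, while Tff2, Vil1 and Muc1 were each under 2 CPM. Muc1 passed as higher, with 13, 5, 5, 6 and 5 counts in CTRL and 33, 44 and 22 in OPA1 LKO. It met the filter on low counts only through the OPA1 LKO libraries. The part of such cells in the Sult2b1 and Sult6b2 levels was not tested. Sult4a1, known from brain, held 79 counts in CTRL and was at 4.09 CPM in CTRL library 1 and at most 0.118 CPM elsewhere. Ugt1a7c and Sult3a1 were under 1 CPM in every library, as was Ugt1a10.

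**Figure D4:**
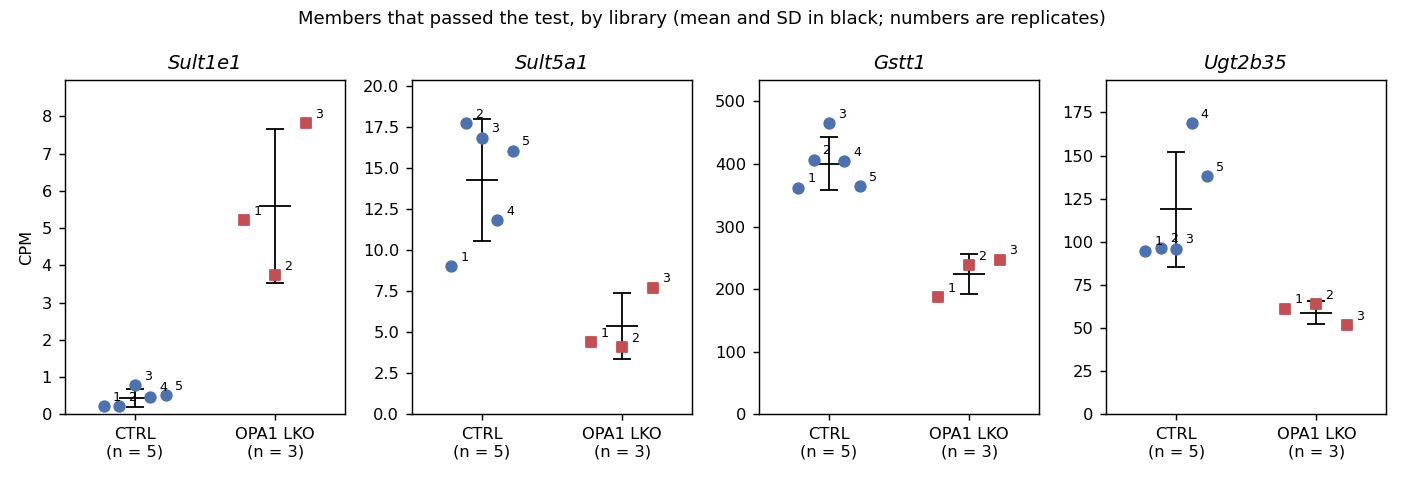
CPM of the 4 members that passed the test, Sult1e1, Sult5a1, Gstt1 and Ugt2b35, in each of 5 CTRL (circles) and 3 OPA1 LKO (squares) libraries, numbered by replicate, with the mean and SD in black. The groups are separated in each panel, upward for Sult1e1 and downward for the other 3.

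Genes that supply the donor molecules were examined beside the enzymes. For UDP-glucuronate, 3 of 11 genes passed, all lower in OPA1 LKO (27.3%, against 2.69% of all tested genes). The median log2 fold change was -0.48. Ugdh, which makes UDP-glucuronate, was at 161, 128, 156, 155 and 118 CPM in CTRL and 70.05, 72.9 and 74.8 CPM in OPA1 LKO, with a wide gap between the groups. Its log2 fold change was -0.99 ± 0.15, adjusted p = 0.00604 by edgeR's quasi-likelihood test with Benjamini-Hochberg adjustment, and it passed without any one of the 8 libraries. Entpd5, a nucleotidase of the endoplasmic reticulum that removes the product UDP, and Slc35d2, a carrier of nucleotide sugars, had log2 fold changes of -0.76 ± 0.17 (adjusted p = 0.0331) and -0.55 ± 0.13 (adjusted p = 0.0409) in the same edgeR test. Each of these 2 passed in 2 of the 8 fits that left out 1 library.

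For glutathione, 1 of 18 tested genes was lower (5.56%, against 2.69% of all tested genes) and 3 were higher (16.7%, against 3.34%). The median log2 fold change was -0.12. Gclc, the catalytic subunit of the rate-limiting enzyme of glutathione synthesis, was at 238, 202.5, 163, 176 and 192 CPM in CTRL and 87.5, 95.1 and 78.5 CPM in OPA1 LKO. All OPA1 LKO libraries were far below all CTRL libraries. The log2 fold change was -1.16 ± 0.16, adjusted p = 0.00423 by edgeR with Benjamini-Hochberg adjustment, and it passed without any one of the 8 libraries. Its partner subunit Gclm had -0.56 ± 0.17 and did not pass (adjusted p = 0.0808 in the same edgeR test). The higher genes were Gpx3, a secreted glutathione peroxidase, at 2.64 ± 0.45, Slc1a5, a glutamine transporter, at 2.23 ± 0.41, and Ggt5, which cleaves glutathione conjugates, at 1.32 ± 0.29 on the log2 scale. Without 1 library, Gpx3 passed in 7 of 8 fits, Slc1a5 in 6 and Ggt5 in 3.

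For sulfate, 0 of 13 genes passed by edgeR, against 6.03% of all tested genes. At an unadjusted p under 0.05, 3 were lower, against 1726 of all 14036 tested genes. With DESeq2 3 passed as lower, against 5.29% of all genes. The median log2 fold change was -0.32. The smallest p-values were those of Arsb, a lysosomal sulfatase, at -0.68 ± 0.20, and Bpnt1, which breaks down what the sulfate donor leaves, at -1.05 ± 0.31. Papss2, the enzyme that makes the sulfate donor PAPS in liver, was at 51.1 to 174.7 CPM in CTRL and 79.7 to 108.8 CPM in OPA1 LKO.

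**Figure D5:**
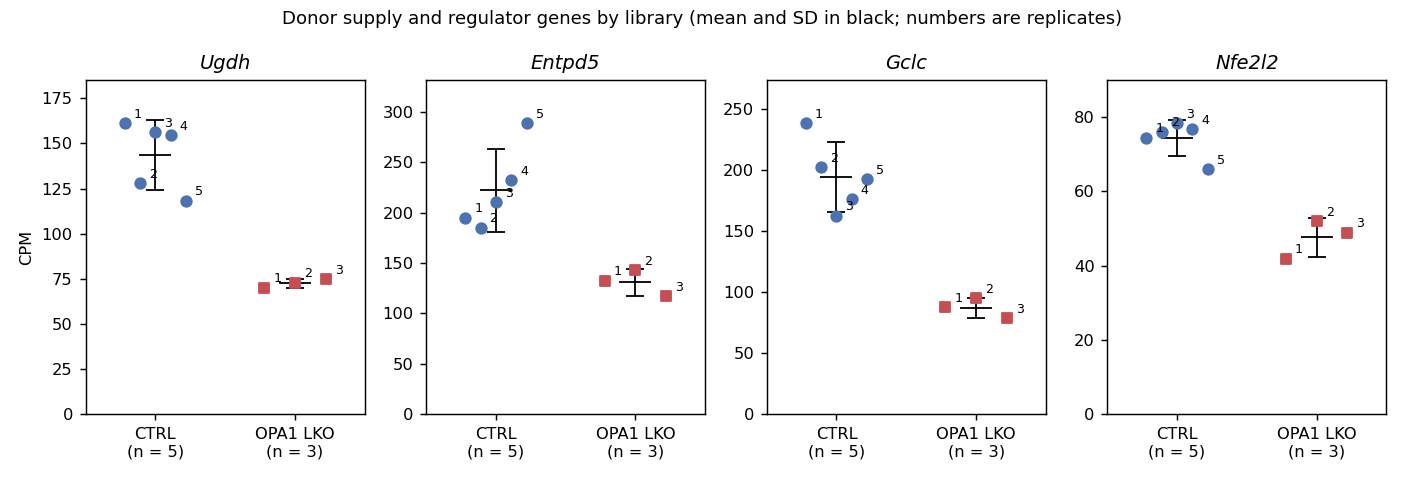
CPM of Ugdh, Entpd5, Gclc and Nfe2l2 in each of 5 CTRL (circles) and 3 OPA1 LKO (squares) libraries, numbered by replicate, with the mean and SD in black. In each panel all OPA1 LKO libraries lie below all CTRL libraries, with Ugdh at 70.05 to 74.8 CPM against 118 to 161 CPM.

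Other enzymes and carriers of the same routes were set against all tested genes, of which 6.03% passed, 2.69% as lower. With DESeq2, 5.29% of all genes passed as lower and 5.14% as higher. At an unadjusted p under 0.05 by edgeR, 1726 of the 14036 tested genes were lower. Of 9 glutathione transferases outside the cytosolic classes, 0 passed by edgeR, with 3 lower at an unadjusted p under 0.05 and 2 lower with DESeq2. Mgst1 and Mgst3, the microsomal forms, had the smallest p-values, at log2 fold changes of -0.83 ± 0.25 and -1.05 ± 0.34. Of 22 other conjugating enzymes 2 passed as lower (9.09%), Hnmt, the histamine methyltransferase (-1.27 ± 0.32), and Acsm5, an acyl-CoA synthetase (-0.64 ± 0.15). With DESeq2 4 of the 22 passed as lower and 1 as higher. Baat, which conjugates bile acids with taurine, did not pass, at -0.66 ± 0.23. Of 15 carriers that export or take up conjugates, 1 passed (6.67%): Abcc3, which moves glucuronides from hepatocytes into blood, at -0.89 ± 0.21. With DESeq2 4 of the 15 passed as lower and 1 as higher. Hnmt passed without 1 library in 2 of 8 fits and Acsm5 and Abcc3 in 1 each.

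Among 27 regulators of these enzymes, 3 passed as lower (11.1%, against 2.69% of all tested genes) and 0 as higher (against 3.34%). At an unadjusted p under 0.05, 9 were lower and 1 higher by edgeR, against 1726 and 1611 of all 14036 tested genes. With DESeq2 6 passed as lower and 0 as higher. By edgeR the number lower was 7 without CTRL library 1 and 1 without OPA1 LKO library 2. It was 0 without OPA1 LKO library 1 or OPA1 LKO library 3, where 7 and 6 were lower at an unadjusted p under 0.05. Nfe2l2, which encodes NRF2, was at 74.5, 76.1, 78.3, 76.7 and 66.0 CPM in CTRL and 41.9, 52.04 and 48.9 CPM in OPA1 LKO, with no overlap. Its log2 fold change was -0.64 ± 0.13, adjusted p = 0.0192 by edgeR with Benjamini-Hochberg adjustment, and it passed in 6 of 8 fits without 1 library. The liver factors Foxa2 and Cebpa had log2 fold changes of -0.99 ± 0.21 and -0.82 ± 0.18 and passed in 4 of 8 such fits each. Nr1i3, which encodes CAR, Nr1i2, which encodes PXR, and Ahr did not pass, at -0.65 ± 0.26, 0.26 ± 0.17 and 0.19 ± 0.28.

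Known targets of these regulators outside the 3 families passed in both directions. For comparison, 3.34% of all tested genes passed as higher, 2.69% as lower, and 53.1% had a negative log2 fold change. At an unadjusted p under 0.05 by edgeR, 1726 of the 14036 were lower and 1611 higher. With DESeq2 5.29% of all genes were lower and 5.14% higher. Of 20 NRF2 targets 1 passed, Gclc, which was lower (5%), and 18 had a negative log2 fold change (90%, median -0.31). Of 19 CAR and PXR targets 2 were higher (10.5%, Cyp3a41a and Cyp3a44, steroid hydroxylases of female liver) and 1 lower (5.26%, Aldh1a7). Of 5 AHR targets Cyp1b1 alone was higher (20%), at 2.61 ± 0.54, and passed in 4 of 8 fits without 1 library. Of 20 PPAR-alpha targets 5 were higher (25%, Cyp4a31, Acot2, Pdk4, Fgf21 and Angptl4) and 1 lower (5%, Vnn1). Of 20 female-biased liver genes 6 were higher (30%) and 0 lower (3 lower at an unadjusted p under 0.05, and 1 with DESeq2). Cyp3a41a and Cyp3a44 are among these 6, so they count in both lists. Log2 fold changes reached 7.73 in both lists. Genes so low in CTRL may have met the filter on low counts only through the OPA1 LKO libraries, which limits the reading of these shares. Of 28 male-biased genes 2 were higher and 2 lower (7.14% each). Of the male-biased genes 20 had a negative log2 fold change (71.4%, median -0.68). At an unadjusted p under 0.05, 12 were lower and 5 higher. With DESeq2 9 passed as lower and 3 as higher. Without CTRL library 1 it was also 9 and 3, while 5.59% and 6.65% of all genes passed. Without CTRL library 2, 4 or 5 or OPA1 LKO library 1 or 3, 1 passed as lower.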

How the data were processed

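Libraries were made from total RNA of liver with a stranded mRNA kit, per the labels' protocols. RSEM, STAR, StringTie, MultiQC and the mouse build mm10 are named in the submitters' processing notes, with no version, and the sources used here give no annotation release. Expected counts estimated by RSEM and TPM were deposited as 4 tables, per gene and per transcript. RSEM divides reads that match several genes by estimation.

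Expected counts were rounded. Genes passing filterByExpr (count minimum 10, total minimum 15) were scaled by TMM and compared between 3 OPA1 LKO and 5 CTRL libraries with edgeR 4.0.16 (glmQLFTest, R 4.3.3) and no covariate, a procedure tested on simulated data. P-values were adjusted by Benjamini-Hochberg over 14036 genes, with 0.05 as the threshold. CPM uses TMM-scaled totals. Alternatives were RLE and upper-quartile factors, no filter or at least 1 CPM in 3 libraries, DESeq2 1.42.0, limma 3.58.1 (voom, and trend on log2(TPM + 1)), a replicate block, each library left out, and CTRL libraries 1 and 3 left out together.

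Members and the 25 gene lists were chosen with earlier results of these data known. Of 305 list entries 302 matched. Named were members that passed, the 4 of each family with the highest mean TPM, those with an absolute log2 fold change of at least 1, untested members with over 15 counts in a group, and in each list the genes that passed or the 2 with the smallest p. Other members, Baat, Papss2, Gclm, Nr1i3, Nr1i2 and Ahr were named after their values were seen. Promoters and positions are from RefSeq (GRCm38.p6), which held all 45 members, 40 of them with a promoter window. Some results on a regulator and on promoter windows are not reported here.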

Additional observations from a re-analysis of the deposited data

Results flagged for a closer look

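Among the 45 members, 9 had a CTRL library whose CPM lay far from the other 4, with a gap to the nearest of them of over 0.71 of the range. Chance gives this in about 1 in 20 groups. CTRL library 3 was high for Sult2b1 (7.94 CPM), Sult6b2 (9.114 CPM), Ugt2b38 (3.411 CPM) and Ugt1a7c (0.8946 CPM). CTRL library 1 was high for Gstm3 (200.3 CPM) and Sult4a1 (4.089 CPM). CTRL library 4 was high for Ugt2b36 (860.0 CPM), Ugt2b5 (840.0 CPM) and Gstt2 (168.8 CPM). None of the 4 members that passed the test had such a library.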

How the results depend on the processing

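Sult1e1 passed in all 17 alternative fits, Gstt1 in 15, Sult5a1 in 13 and Ugt2b35 in 12, each with the same direction throughout. The count of lower members, 3 in the fit reported, was 7 with DESeq2 and 13 without CTRL libraries 1 and 3 together, and ran from 0 to 9 when 1 library was left out. The count of higher members was 3 without CTRL libraries 1 and 3 together, and 1 to 2 when 1 library was left out. Directions turned for Gsta1 (0.074 without CTRL libraries 1 and 3), for Gstp1 (0.091 on the log2(TPM + 1) scale) and for Sult1d1, at 0.047 with upper-quartile factors, 0.16 on the log2(TPM + 1) scale and 0.10 with the replicate block. Sult1d1 ran from -0.21 to 0.27 when 1 library was left out. Apart from what the construction of each fit removes, the cause was not tested. Over all genes, 846 passed in the fit reported, 1596 with DESeq2, 623 without a filter, 1701 without CTRL library 1, 2919 without CTRL libraries 1 and 3, 448, 502 and 422 without CTRL libraries 2, 4 and 5, and 198 and 231 without OPA1 LKO libraries 1 and 3. On the log2(TPM + 1) scale 611 passed, 504 higher and 107 lower, and with upper-quartile factors 547 were higher and 270 lower, against 469 and 377 in the fit reported.

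Replicate numbers are shared by the labels of both groups. The deviations of same-numbered libraries correlated at 0.051, 0.040 and 0.146. Against a limit of 0.1 set for pairing, numbers 1 and 2 were under it and number 3 was over it. CTRL libraries 1 to 3 each correlated best with the OPA1 LKO library of the same number. Whether the numbers mark pairs cannot be told from these values. With the number as a replicate block 367 genes passed, and of the members 1 was higher and 4 lower, Gstt3 being added.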
